A study of Mus musculus with 64 samples.

Results

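The 40 genes described here are imprinted genes of the mouse, which are expressed mainly from the copy inherited from one parent. They were taken by symbol from a fixed list that was chosen with earlier results of these data known. All 40 were found among the 23338 gene rows of the count files. Of the 40, 20 are known as paternally expressed in at least some tissues and 20 as maternally expressed. The mice were inbred C57BL/6 (C57BL/6 J in the methods of the study) and the counts do not separate the parental copies, so every value below is the sum of both copies and says nothing of which copy was read.

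RNA was sequenced from 64 samples at 4 stages, to compare males and females. These were 12 single eight-cell embryos at 2.5 days post coitum (6 male, 6 female), 4 embryonic stem (ES) cell lines grown in 2i medium (2 male, 2 female), 24 late-gestation fetal livers (12 male, 12 female) and 24 adult livers of animals aged 15 to 20 weeks (12 male, 12 female). All groups share this strain, and the labels name no transgene or treatment of the animals. The ES lines were derived from eight-cell embryos and kept with 2 kinase inhibitors and LIF, which hold the cells in a naive pluripotent state. The gender labels of the eight-cell embryos were set by the authors from Xist and Eif2s3y in the same libraries, and those of the ES lines and fetal livers from a PCR for Sry. The embryos were amplified with a single-cell protocol and the other samples with a total RNA kit, so that stage and protocol cannot be told apart wherever the embryos are set against another stage.

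Imprinted genes lie in clusters in which a differentially methylated region, set in the egg or the sperm, governs several genes at once. Many of the paternally expressed genes, such as Igf2, promote fetal growth, and several of the maternally expressed ones, such as Cdkn1c, Grb10 and H19, restrain it. Many are known to be abundant in fetal tissues and to be switched down after birth. In ES cells the methylation that marks the parental copies can be lost or gained in culture.

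Reads on genes ranged from 1567583 to 10386931 per library, with the adult livers the shallowest (1567583 to 4757610). Levels are given as counts per 1000000 reads on genes (CPM), scaled over all 64 libraries by the trimmed mean of M values. All 8 hepatocyte markers had a median of at least 1 CPM in the fetal and adult livers of both genders, and their summed level was 22589 to 30662 CPM in fetal and 51636 to 70585 CPM in adult livers. All 8 pluripotency markers reached that level in the ES lines. The share of counted reads outside genes did not overlap between fetal males (39.9 to 49.0%) and fetal females (34.1 to 38.1%).

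The level of the 40 genes differed strongly by stage. The stage with the highest median was fetal liver for 23 genes, the ES lines for 8, adult liver for 7 and the eight-cell embryo for 1, and Snrpn had a median of 0 in every stage. Several members lie close together on GRCm38, H19 at chr7:142575529-142578143, Igf2 at chr7:142650766-142666816 and Kcnq1ot1 at chr7:143203458-143296549, while Ppp1r9a is at chr6:4902917-5165661 and Grb10 at chr11:11930508-12038683. At a median of at least 10 CPM were 9 of the 40 genes in eight-cell embryos, 18 in the ES lines, 28 in fetal liver and 16 in adult liver. No read of 15 genes was counted in any eight-cell embryo.

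**Figure D1:**
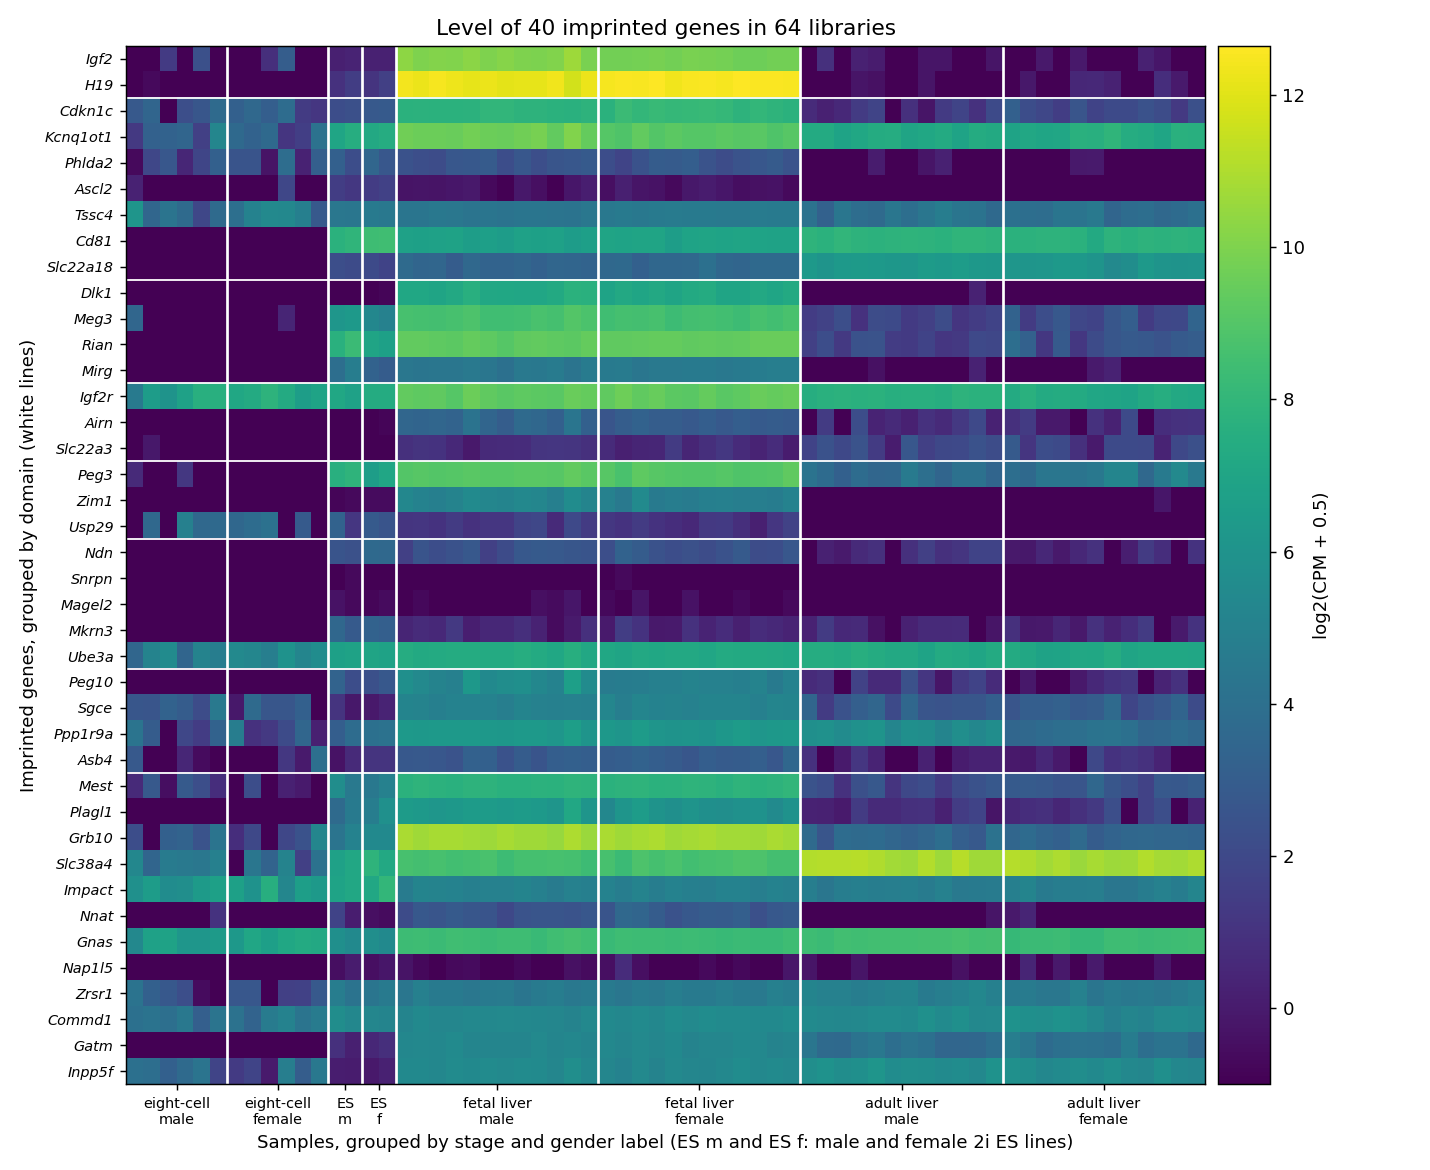
Level of the 40 imprinted genes (rows, grouped by domain) in each of the 64 libraries (columns, grouped by stage and gender label), as log2(CPM + 0.5) on a colour scale. H19, Igf2, Dlk1 and Grb10 are bright in the 24 fetal livers and dark or dim in the 24 adult livers, while Slc38a4 is brightest in the adult livers.

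In eight-cell embryos the members with the highest median CPM, not divided by length, were Igf2r, Gnas and Impact. Igf2r, the receptor that clears IGF2 for breakdown, ranged from 24.5 to 229 CPM with a median of 129 CPM. Gnas, which encodes the stimulatory G protein alpha subunit, ranged from 41.0 to 164 CPM (median 106 CPM). Impact, a regulator of translation, ranged from 38.5 to 185 CPM (median 83.2 CPM). These 3 genes had reads in all 12 embryos.

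Other members were detected in some embryos and not in others. Usp29, a member of the ubiquitin protease family, ranged from 0 to 30.2 CPM with a median of 11.4 CPM and had no read in 4 of the 12 embryos. Slc38a4, an amino acid transporter, ranged from 0 to 39.3 CPM (median 20.4 CPM), with no read in 1 embryo. Among expressed genes at a median of at least 10 CPM, the median standard deviation of log2(CPM + 0.5) within gender was 0.567 over 6564 genes in embryos, against 0.111 over 8353 genes in the ES lines. For the 9 members at that level in embryos the median standard deviation was 0.842.

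No member was called between male and female embryos. Of the 16 members that passed the filter on low values, edgeR called 0, where a call was a Benjamini-Hochberg adjusted p under 0.1 and an absolute log2 fold change above 0.5, and 0.264% of the 9087 genes tested were called. DESeq2 also called 0 of the 16, and 1 of them, Gnas, had an unadjusted p under 0.05 with edgeR (log2 male over female -0.62, SE 0.26).

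The promoters of Peg3, Mest and Meg3 are shown because these 3 genes recur in the results below. Each is 250 bases before to 50 after a RefSeq transcript start on GRCm38.p6, 5′ to 3′ on the strand of the gene, in lower case, with TGCCGC or its reverse complement in capitals. TGCCGC is the core of the motif bound by ZFP57, a zinc finger protein that protects methylated imprints. The Peg3 window is at chr7:6730370-6730669 on the minus strand, the Mest window at chr6:30737800-30738099 on the plus strand and the Meg3 window at chr12:109540746-109541045 on the plus strand.
Peg3: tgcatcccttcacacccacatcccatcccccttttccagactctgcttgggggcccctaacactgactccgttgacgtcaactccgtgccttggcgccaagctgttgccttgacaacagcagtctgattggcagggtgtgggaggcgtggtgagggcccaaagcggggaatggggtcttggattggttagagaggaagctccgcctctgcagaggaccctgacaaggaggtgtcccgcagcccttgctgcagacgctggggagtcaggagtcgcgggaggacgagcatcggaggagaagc
Mest: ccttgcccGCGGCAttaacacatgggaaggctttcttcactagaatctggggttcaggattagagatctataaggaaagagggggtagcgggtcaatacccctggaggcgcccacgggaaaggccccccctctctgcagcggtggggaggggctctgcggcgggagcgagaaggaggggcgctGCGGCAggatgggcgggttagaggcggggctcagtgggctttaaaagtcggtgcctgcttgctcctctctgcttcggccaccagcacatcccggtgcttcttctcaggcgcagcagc
Meg3: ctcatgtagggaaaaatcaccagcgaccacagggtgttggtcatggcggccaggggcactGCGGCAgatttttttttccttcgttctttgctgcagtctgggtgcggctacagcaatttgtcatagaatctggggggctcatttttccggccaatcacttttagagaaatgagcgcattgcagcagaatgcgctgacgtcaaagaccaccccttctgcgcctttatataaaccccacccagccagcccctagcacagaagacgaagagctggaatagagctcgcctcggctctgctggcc
The Peg3 window held no match, the Mest window 2 and the Meg3 window 1. The Peg3 window shares 263 bases with that of Usp29, which starts on the opposite strand. RefSeq windows were found for 35 of the 40 genes, and H19, Cdkn1c, Peg10, Sgce and Impact had none. TGCCGC, searched on both strands, was in 11 of the 53 windows of these genes (20.8%) and in 11.6% of all 32851 promoter windows of the same length. Windows of 1 gene can overlap, as for Mest. Counted by gene, 10 of the 35 members and 3527 of all 27025 genes had a match. The YY1 motif GCCATNTTG, searched likewise, was in 1.89% of the members' windows and 2.51% of all windows. The median number of CpG in a window was 13 for the members and 7 for all.

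Between fetal and adult liver, H19, Igf2 and Dlk1 had the largest falls among the members. H19, the maternally expressed noncoding RNA next to Igf2, ranged from 3365 to 6409 CPM in the 24 fetal livers (median 5489 CPM) and from 0 to 1.20 CPM in the 24 adult livers (median 0 CPM). Igf2, the fetal growth factor, ranged from 798 to 1582 CPM in fetal livers (median 957 CPM) and from 0 to 1.38 CPM in adult livers. Every adult liver was below every fetal liver for both genes.

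With 13 reads each over all adult livers, the pooled level of H19 was 21895 times higher in fetal than in adult liver (95% exact interval 12804 to 41121), and that of Igf2 4066 times (2378 to 7636). These intervals cover counting error only, as do those that follow. Dlk1, a Notch-like membrane protein of fetal progenitors and the paternally expressed gene of its domain, ranged from 119 to 212 CPM in fetal livers, and 1 read was counted over the 24 adult livers. Zim1, a maternally expressed zinc finger gene, ranged from 22.5 to 49.98 CPM in fetal livers, and also had 1 read in the adult livers. For Dlk1 the ratio was 7871 with an interval of 1413 to 310904, and for Zim1 1785 with an interval of 320.2 to 70504.

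Of the 34 members that passed the filter on low values, 23 fell and 4 rose in adult liver, while 7 were not called. Over all 13026 genes tested, 35.3% fell and 31.8% rose. The median log2 adult over fetal was -2.42 over these 34 members and -0.05 over all genes tested. Of all calls 47.4% were higher in adult liver, and 25.5% when libraries were scaled by their totals alone, where 26 members fell and 4 rose. Of the 23 that fell, 15 did not pass the same filter within the adult livers alone, so they entered the fit through the fetal livers, where they are high, and their fall follows in part from that entry. The other 8 were Igf2r, Peg3, Mest, Kcnq1ot1, Grb10, Sgce, Ppp1r9a and Gatm. Over all 40 members with no filter, every adult liver was below every fetal liver for 22 and above every fetal liver for 3, against 24.4% and 16.4% of the 13026 genes.

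**Figure D2:**
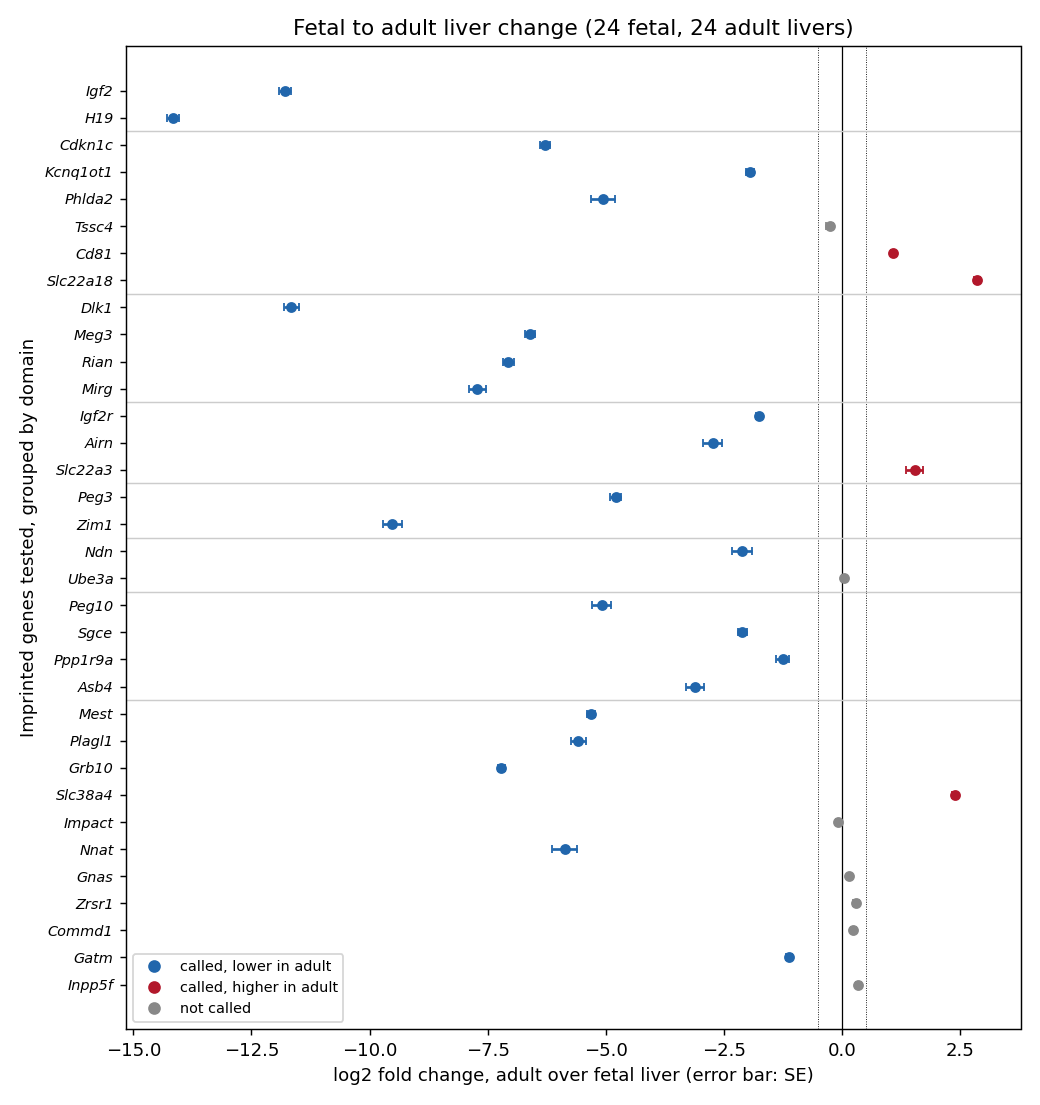
Log2 fold change from fetal to adult liver (horizontal axis) with its standard error for the 34 imprinted genes tested, grouped by domain. H19, Igf2 and Dlk1 lie at the far left, 4 genes (red) lie to the right of the dotted line at 0.5, and 7 genes (grey) were not called.

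The large domains moved as follows. In the Dlk1-Meg3 domain all 4 members fell. Meg3, a maternally expressed noncoding RNA, ranged from 327 to 503 CPM in fetal livers (median 388 CPM) and from 1.39 to 9.86 CPM in adult livers (median 3.21 CPM), a log2 change of -6.61 (SE 0.11, edgeR adjusted p = 4.2e-48). Rian, the host of a small nucleolar RNA cluster, went from 524 to 749 CPM down to 1.70 to 14.7 CPM (log2 -7.06, SE 0.11). Mirg, which hosts microRNAs, went from 15.8 to 28.4 CPM down to 0 to 0.736 CPM (log2 -7.72, SE 0.17). The fetal and adult ranges did not overlap for any of the 4.

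In the Kcnq1 domain the members split. Cdkn1c, the inhibitor of cyclin-dependent kinases p57, ranged from 200.4 to 318 CPM in fetal livers (median 229 CPM) and from 0 to 8.73 CPM in adult livers (median 2.92 CPM), with a log2 change of -6.29 (SE 0.11). Phlda2, a placental growth restrainer, fell by 5.06 on the log2 scale (SE 0.26) from a low fetal level of 3.03 to 8.07 CPM. Kcnq1ot1, the noncoding RNA that silences its domain on the paternal copy, went from 468 to 1052 CPM (median 657 CPM) down to 119 to 246 CPM (median 159.6 CPM), a log2 change of -1.94 (SE 0.09).

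The other members of that domain did not fall. Cd81, a tetraspanin, ranged from 93.8 to 125 CPM in fetal livers and from 159 to 249 CPM in adult livers, with no overlap (log2 1.08, SE 0.04). Slc22a18, a transporter, ranged from 7.20 to 15.8 CPM in fetal and from 42.0 to 91.7 CPM in adult livers (log2 2.86, SE 0.06). Tssc4, at 17.7 to 24.8 CPM in fetal and 8.99 to 26.8 CPM in adult livers, was not called (log2 -0.26, SE 0.07), and Ascl2, a transcription factor of the trophoblast, was below the filter with 57 reads over the fetal livers and 0 over the adult livers, at least 5.63-fold lower in adult liver against a floor of 3 counts over the group (the lower limit of the 95% exact interval is 4.43).

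In the Peg3 domain, Peg3, a paternally expressed zinc finger gene, ranged from 428 to 662 CPM in fetal livers (median 529.6 CPM) and from 8.73 to 42.7 CPM in adult livers (median 16.4 CPM), with a log2 change of -4.79 (SE 0.12). Usp29, which shares a promoter region with it, was low in fetal livers (0.656 to 3.54 CPM) and had 0 reads over the adult livers, at least 33.3-fold lower by the same floor (the lower limit of the 95% exact interval is 26.9). In the Igf2r domain, Igf2r went from 531 to 785 CPM down to 121 to 225 CPM (log2 -1.76, SE 0.05) and Airn, the noncoding RNA read across it, from 5.53 to 19.4 CPM down to 0 to 4.17 CPM (log2 -2.74, SE 0.20). Slc22a3, a cation transporter of the same domain, rose (log2 1.54, SE 0.19) from 0.470 to 2.12 CPM to 0.485 to 6.90 CPM, with overlapping ranges. It did not pass the filter within the fetal livers alone. It entered this fit through the adult livers, where it is higher, and its rise follows in part from that entry.

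In the Peg10-Sgce domain all 4 members fell. Peg10, a retrotransposon-derived gene, ranged from 23.8 to 103 CPM in fetal livers and from 0 to 4.73 CPM in adult livers (log2 -5.08, SE 0.20). Sgce, a sarcoglycan, went from 27.9 to 37.9 CPM down to 2.08 to 12.5 CPM, and Asb4 from 4.85 to 11.1 CPM down to 0 to 3.40 CPM. They fell by 2.11 (SE 0.09) and 3.11 (SE 0.20) on the log2 scale. Ppp1r9a, which encodes neurabin, fell by 1.25 (SE 0.14), and its adult values split by gender as described below.

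In the Snrpn-Ube3a domain little was measured in liver. Ube3a, the ubiquitin ligase lost in Angelman syndrome, ranged from 126 to 186 CPM in fetal and from 117 to 188 CPM in adult livers and was not called (log2 0.05, SE 0.04). Ndn, a MAGE family gene, fell by 2.11 (SE 0.21) from 2.502 to 9.47 CPM in fetal livers to 0 to 2.90 CPM in adult livers. Snrpn had 3 reads over all 64 libraries, and the row of Snurf, whose exons share 216 bases with those of Snrpn on the same strand, had 0. How reads in shared exons were assigned was not tested, so these rows may not give the level of Snrpn. Mkrn3 and Magel2 of this domain had medians under 1 CPM in both livers and were not tested there, and so did Nap1l5, which lies on chromosome 6.

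Among genes outside the large domains, Grb10, an adaptor that restrains insulin and IGF signaling, ranged from 1489 to 2009 CPM in fetal livers (median 1747 CPM) and from 5.53 to 17.4 CPM in adult livers (median 10.9 CPM), with a log2 change of -7.21 (SE 0.07). Mest, a paternally expressed hydrolase gene, went from 199.5 to 250.5 CPM down to 1.45 to 11.2 CPM (log2 -5.32, SE 0.08). Plagl1, a zinc finger transcription factor, went from 40.02 to 142 CPM down to 0 to 4.42 CPM (log2 -5.58, SE 0.16). Gatm, an enzyme of creatine synthesis, went from 34.3 to 45.3 CPM down to 10.9 to 28.5 CPM. Nnat and Gatm fell by 5.87 (SE 0.26) and 1.12 (SE 0.07) on the log2 scale.

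Slc38a4 was the only member of that group called higher in adult liver. It ranged from 310.2 to 476 CPM in fetal livers (median 398 CPM) and from 1545 to 2322 CPM in adult livers (median 1923 CPM), a log2 change of 2.39 (SE 0.05), with no overlap. Impact, at 25.4 to 35.7 CPM in fetal and 19.9 to 36.4 CPM in adult livers, was not called. Nor were Gnas (295 to 393 CPM and 269 to 414 CPM), Zrsr1 (19.6 to 30.1 CPM and 19.4 to 39.4 CPM), Commd1 (33.3 to 49.5 CPM and 29.4 to 62.5 CPM) and Inpp5f (33.2 to 53.3 CPM and 36.4 to 69.2 CPM), with overlapping ranges for each. Per kilobase of annotated exon, the highest median in fetal liver was that of H19 at 2401 CPM per kb, followed by Grb10 at 341 CPM per kb and Igf2 at 182 CPM per kb, and the highest in adult liver was that of Slc38a4 at 466 CPM per kb.

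Markers of several other cell types also differed between fetal and adult liver. All 4 megakaryocyte markers fell. The macrophage, endothelial, stellate or mesenchymal and cholangiocyte lists each held markers that rose and markers that fell. The summed level of 6 neutrophil markers was 1186 to 2582 CPM in fetal livers and 0 to 2.91 CPM in adult livers, and that of 9 erythroid markers 5329 to 7864 CPM against 53.0 to 357 CPM. All 6 neutrophil markers tested and all 7 erythroid markers tested fell. Mpo, Elane, Ltf, Camp and Ngp of the first list and Gata1 and Epb4.2 of the second were among those at a median of 0 in adult livers, and the globin rows Hba-a1 and Hbb-b1 were at a median of 0 in all livers. All 8 hepatocyte markers tested rose, and all 5 markers listed as fetal hepatocyte fell. Those 5 were Afp, Cyp3a16, Gpc3, Lin28b and Hbb-y, of which Hbb-y is a globin gene and not a hepatocyte marker. In whole liver, fewer cells of a type and less RNA per cell cannot be told apart, and the part of these changes in the values of the imprinted genes was not tested.

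Genes of the same pathway were counted from lists of other imprinted genes and of genes that maintain imprints. Of 48 other imprinted genes in the files, 33 were tested, and 9 rose and 14 fell in adult liver. These are 27.3% and 42.4% of the 33, near the 31.8% and 35.3% of all genes tested. The 6 largest changes were falls, of Igf2as (log2 -7.58, SE 0.44), Nespas (-7.11, SE 0.19), Rtl1 (-6.98, SE 0.40), Zdbf2 (-6.18, SE 0.34), Tspan32 (-6.11, SE 0.13) and Ampd3 (-4.43, SE 0.10). The first 4 had an adult median of 0 CPM, Tspan32 one of 0.456 CPM and Ampd3 one of 1.99 CPM. Within the adult livers alone 21 of the 33 passed the filter. These 6 entered the fit through the fetal livers, where they are high, and their falls follow in part from that entry. Igf2as and Nespas are antisense to Igf2 and Gnas, so without a known strand setting their reads cannot be told from those of the partner gene. Of 16 genes of imprint maintenance, 13 were tested, of which 11 fell and 1 rose. These are 84.6% and 7.69% of the 13, against 35.3% and 31.8% of all genes tested. Among the 11, Uhrf1, Tet1 and Zfp57 did not pass the filter within the adult livers alone. They entered the fit through the fetal livers, where they are high, and their falls follow in part from that entry. Uhrf1, which brings the maintenance methyltransferase to replicating DNA, fell by 7.15 (SE 0.12) and Dnmt1, that methyltransferase, fell by 3.15 (SE 0.06). Tet1, which oxidizes methylated cytosine, fell by 3.64 on the log2 scale (SE 0.19). Zfp57 fell by 2.58 on the log2 scale (SE 0.19), and Zfp445, another guardian of imprints, rose by 0.80 (SE 0.09). Within adult liver Zfp445 was also called between genders, higher in males (log2 male over female 0.95, SE 0.09). Tet2 (-0.67, SE 0.13) and Dnmt3b (-0.53, SE 0.23) were called lower in adult males.

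From the ES lines to fetal liver, 26 of the 37 members tested were higher in fetal liver and 6 were lower, against 40.9% and 35.5% of the 14858 genes tested. Of the 26, 7 (Igf2, Dlk1, Zim1, Nnat, Inpp5f, Airn and Slc22a3) did not pass the filter within the ES lines alone, so they entered the fit through fetal liver, where they are high, and the other 19 did pass it. This comparison shares the fetal livers with the one above, and cell type and stage cannot be told apart in it. The largest differences were those of Dlk1, with 1 read over the 4 lines, H19 and Igf2, with 38 reads over the lines. H19 had 20 to 32 reads per line (1.44 to 2.51 CPM), and its log2 difference was 11.35 (SE 0.17). Cdkn1c, Grb10, Sgce, Gatm and Inpp5f were higher in fetal liver by 5.41 (SE 0.13), 5.65 (SE 0.16), 5.25 (SE 0.16), 5.14 (SE 0.12) and 6.15 (SE 0.14) on the log2 scale.

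The 6 members that were lower in fetal liver than in the ES lines were Usp29, Ascl2, Cd81, Ndn, Mkrn3 and Impact. Of these, Ascl2 and Mkrn3 did not pass the filter within the fetal livers alone. They entered the fit through the ES lines, where they are high, and their difference follows in part from that entry. Mkrn3, a ring finger gene of the Snrpn-Ube3a domain, was at 11.5, 6.69, 9.23 and 8.41 CPM in lines 1 to 4 and at 0.170 to 2.27 CPM in fetal livers (log2 -3.21, SE 0.23). Impact had a log2 difference of -2.49 (SE 0.09). Ascl2 fell by 2.81 (SE 0.27) and Cd81 by 1.38 (SE 0.06) on the log2 scale.

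The 4 ES lines differed among themselves in many of the members. Of the 31 members with a mean of at least 1 CPM in the lines, 18 had a highest line at least 2-fold over the lowest, and 21.1% of the 12539 genes at that level did. Without male line 1 the count of members was 8, and without another line 13 to 17. The median standard deviation of log2(CPM + 0.5) over the lines was 0.482 for the 31 members and 0.208 for all genes at that level. At a mean of at least 10 CPM, 11 of 20 members and 9.12% of 8994 genes were past 2-fold. Ratios and standard deviations were computed with scaling over the 4 lines, which are 4 cultures and do not measure variation within a line.

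Meg3, Rian and Mirg, the noncoding RNAs of 1 domain, had the same order of lines. Meg3 was at 71.5 and 84.3 CPM in male lines 1 and 2 and at 39.4 and 31.1 CPM in female lines 3 and 4. Rian was at 204 and 317 CPM in the male lines and 125 and 108 CPM in the female lines. Mirg was at 14.7 and 27.2 CPM in the male lines and 9.30 and 7.38 CPM in the female lines. Male line 2 was the highest and female line 4 the lowest for all 3, with a highest over lowest ratio of 2.70 for Meg3, 2.94 for Rian and 3.68 for Mirg.

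Dlk1, the protein-coding gene of that domain, had 1 read over the 4 lines. Peg3 was at 197 and 234 CPM in the male lines and 94.8 and 136 CPM in the female lines. Both male lines were above both female lines for Peg3 too, at a ratio of 2.47. Ndn had the opposite order, at 5.27 and 4.80 CPM in the male lines and 12.3 and 11.6 CPM in the female lines.

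Other members set a single line apart. Plagl1 was at 12.5, 23.5, 26.7 and 58.1 CPM in lines 1 to 4, a ratio of 4.62. Impact was at 121, 143, 145 and 261 CPM, highest in female line 4. Slc38a4 was at 111, 147, 233 and 148 CPM, highest in female line 3.

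Mest was highest in male line 1, at 51.9 CPM, and at 22.6, 21.3 and 31.9 CPM in lines 2 to 4. Grb10 was lowest in male line 1, at 18.5 CPM, and at 32.2, 43.6 and 43.8 CPM in the others. Usp29 was at 9.25, 1.75, 6.69 and 5.34 CPM and does not share the order of Peg3, whose promoter window it overlaps. The exons of Usp29 share 2582 bases with those of Zim3 on the other strand. With the strand setting unknown, reads of that pair may be mixed in every stage. Nnat, Asb4 and Sgce were also past 2-fold, at 2 to 39 reads per line. Ube3a, Tssc4 and Gnas had the smallest ratios among the 31, at 1.15, 1.19 and 1.27.

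**Figure D3:**
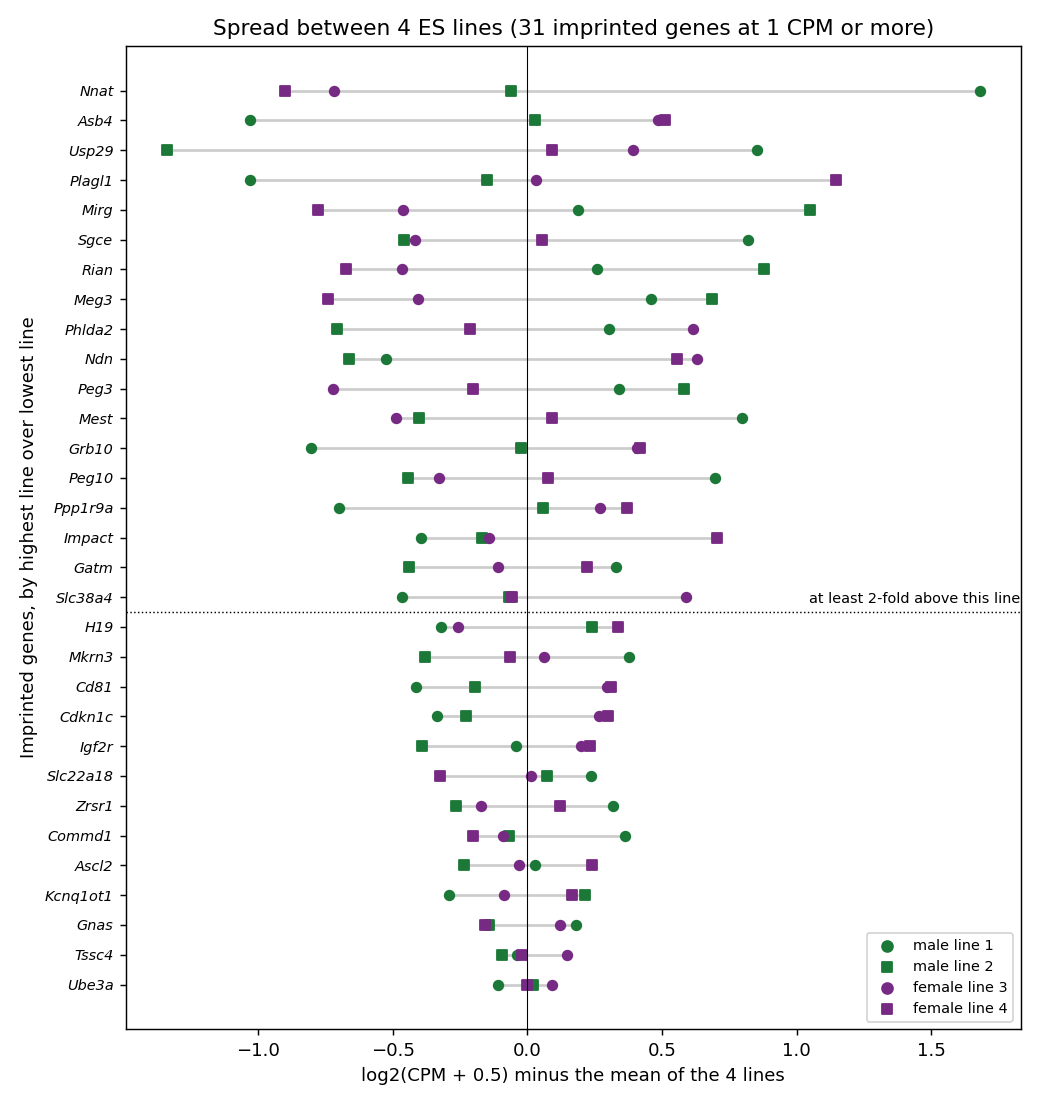
Each of the 4 ES lines (green, male; purple, female) as log2(CPM + 0.5) minus the mean of the 4 lines, for the 31 imprinted genes at a mean of 1 CPM or more, ordered by the ratio of the highest to the lowest line. The 18 genes above the dotted line reach 2-fold, and the male lines lie to the right of the female lines for Mirg, Rian, Meg3 and Peg3.

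By gender label, 6 of the 30 members tested were called in the ES lines, where 9.5% of the 12678 genes tested were called. Meg3 (log2 male over female 1.15, SE 0.15), Rian (1.17, SE 0.21), Mirg (1.33, SE 0.33) and Peg3 (0.91, SE 0.18) were higher in the male lines, and Cd81 (-0.60, SE 0.09) and Ndn (-1.24, SE 0.19) were lower. With 2 lines a gender, line and gender cannot be told apart. With any 1 line left out the sign of all 6 held, but calls among them were lost. Such a fit has 1 line for a gender, so its count of calls cannot be read as a result. Of the 15 genes of imprint maintenance tested, 2 were called, Dnmt3l (log2 -1.07, SE 0.11) and Atrx (-0.82, SE 0.06), both lower in the male lines. Atrx lies on the X chromosome, and the study lists it as higher in female eight-cell embryos. The part of X copy number in its difference was not tested.

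In fetal liver, 4 of the 34 members tested were called between genders, where 4.64% of the 12930 genes tested were called, and all 4 were higher in males. Kcnq1ot1 ranged from 649.7 to 1052 CPM in males (median 772 CPM) and from 468 to 664 CPM in females (median 542 CPM), with a log2 male over female of 0.58 (SE 0.06). Peg10 ranged from 29.8 to 103 CPM in males and from 23.8 to 33.7 CPM in females (0.82, SE 0.16). Airn ranged from 7.67 to 19.4 CPM in males and from 5.53 to 9.18 CPM in females (0.70, SE 0.13). Plagl1 ranged from 67.9 to 142 CPM in males and from 40.02 to 91.6 CPM in females (0.56, SE 0.12). The ranges of the genders overlapped for all 4.

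The share of reads outside genes moved with these values. Male fetal liver 11, which had the largest share (49.0%), was the highest of the 12 males for Kcnq1ot1, Plagl1, Peg10 and Airn, and was the highest or lowest male for 20 of the 34 members, while each of the other males was at an end for 2 to 7. Without it, 3 members were called and Plagl1 was not (log2 0.47). With the share of reads outside genes as a covariate, 0 members were called with edgeR (1 at an unadjusted p under 0.05), and Plagl1, Peg10 and Airn changed sign. Since that share did not overlap between the genders, it and gender cannot be told apart in fetal liver. Igf2 and H19 passed the adjusted p but not the fold (log2 0.41, SE 0.06 and log2 -0.28, SE 0.06).

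In adult liver, 3 of the 18 members tested were called, where 9.49% of the 10372 genes tested were called. Ppp1r9a ranged from 34.6 to 65.1 CPM in the 12 males (median 52.4 CPM) and from 10.4 to 18.4 CPM in the 12 females (median 13.4 CPM), with a log2 male over female of 1.86 (SE 0.11, edgeR adjusted p = 9.9e-15). The ranges did not overlap. Peg3 ranged from 8.73 to 22.985 CPM in males and from 11.8 to 42.7 CPM in females (log2 -0.77, SE 0.20). Mest ranged from 1.45 to 6.17 CPM in males and from 2.79 to 11.2 CPM in females (log2 -0.68, SE 0.20).

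Among the 12 adult livers at or above the median total count of their gender, Ppp1r9a was called (log2 2.02) and Peg3 (-0.39) and Mest (-0.56) were not. The exons of Mest share 912 bases with those of Copg2 on the other strand, and the strand setting of the counting is not given in the sources used here, so reads of the pair may be mixed. The summed level of the 9 erythroid markers was 231 to 357 CPM in adult males and 53.0 to 128 CPM in adult females. Without Alas2, an enzyme of heme synthesis at 184 to 242 CPM in adult males and 13.3 to 50.6 CPM in adult females, the sum was 47.0 to 139 CPM and 35.3 to 94.6 CPM, with overlapping ranges. Of the 2 tested, Alas2 was called (log2 2.79, SE 0.11) and Tfrc was not. Hba-a1, Hbb-b1, Gata1 and Epb4.2 were among those at a median of 0 in adult livers of both genders. The part of these markers in the results was not tested.

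The change from fetal to adult liver differed between genders for 7 of the 34 members tested, where 13.7% of the 13026 genes did. For Ppp1r9a the male minus female log2 difference was larger in adult than in fetal liver by 1.76 (SE 0.12). For Meg3, Rian, Peg3, Mest, Cdkn1c and Kcnq1ot1 the interaction term was below 0, at -0.91 (SE 0.24), -0.97 (SE 0.23), -0.85 (SE 0.19), -0.62 (SE 0.17), -0.94 (SE 0.27) and -0.73 (SE 0.13). The interaction was not fitted with the share of reads outside genes as a covariate, nor with the deeper adult livers alone. In adult livers, Cdkn1c had a median of 1.39 CPM in males and 3.85 CPM in females, and Rian 2.67 CPM and 6.52 CPM, at levels below the filter within adult liver.

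**Figure D4:**
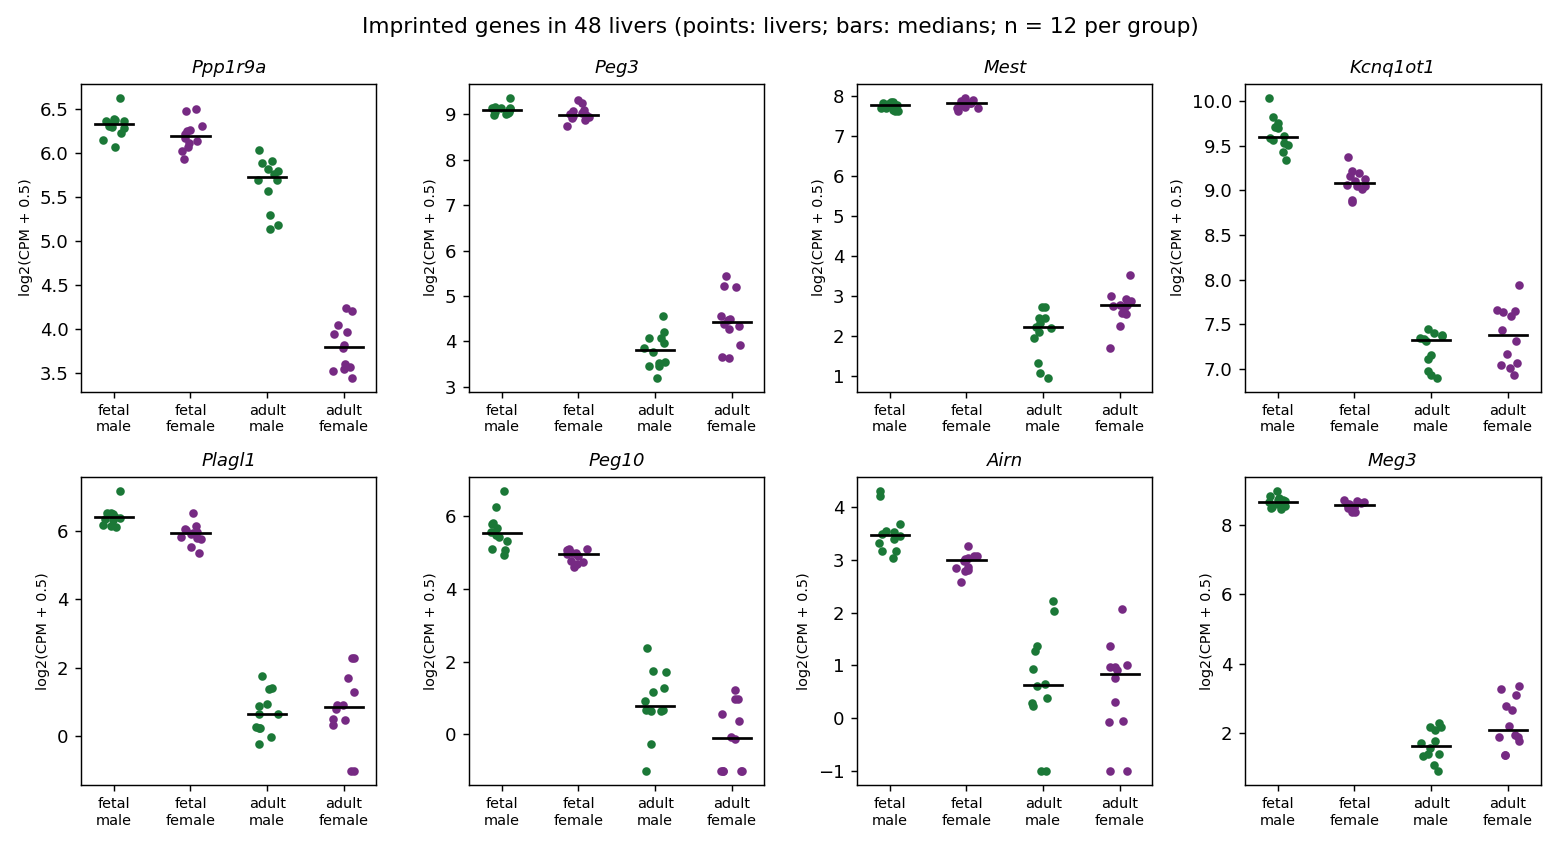
Level of 8 imprinted genes as log2(CPM + 0.5) in each of the 48 livers (points) with the group median (bars), 12 livers a group; vertical scales differ between panels. The adult males lie above all adult females for Ppp1r9a, and the fetal male median lies above the fetal female median for Kcnq1ot1, Plagl1, Peg10 and Airn.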

How the data were processed

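Whole-embryo, ES cell and liver RNA was sequenced in 64 samples. The deposited files hold raw read counts per gene, made by the authors with TopHat 2.0.4, Bowtie 2.1.0 and SAMtools 0.1.18 on mm10, with duplicates removed by Picard and reads counted by HTSeq; the strand setting is not given in the sources used here. The fetal livers were collected at 17.5 days post coitum. Rows naming no gene (5) were left out. They held 8.63 to 49.0% (no gene) and 0.582 to 2.30% (more than 1 gene) of the reads per library, taken over reads on genes and these rows. Counts were tested with edgeR 4.0.16 (R 4.3.3), robust quasi-likelihood F test, TMM scaling and filterByExpr, with gender and stage as terms. A gene was called at an adjusted p under 0.1 and an absolute log2 above 0.5, the thresholds of the study. The fits were checked on simulated data. DESeq2 1.42.0 and other scalings, filters and subsets served as alternatives. Replicates are separate embryos, lines and animals. By the methods of the study the eight-cell embryos came from several litters, and litter was not a term in any fit. The members and lists were chosen with earlier results of these data known. Full values were given for members at a median of 10 CPM or more in a stage, those called between genders, those past 2-fold between ES lines and those with the largest liver change, with up to 6 genes of another list with the largest liver change; Zfp445 and some low members were named after their values were seen. Exon lengths and overlaps came from the GENCODE vM21 basic annotation of GRCm38. Levels between genes were compared per kilobase of exon. The values of 1 erythroid marker are not reported here.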

Additional observations from a re-analysis of the deposited data

Results flagged for a closer look

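Of 33 combinations of a member and a group of 6 embryos that were examined for a sample apart, 2 had one, and chance gives about 1 in 20. Cdkn1c was at 0 CPM in male eight-cell embryo 3, and Zrsr1 was at 0 CPM in female eight-cell embryo 9, below the others of their groups. The male to female log2 difference changed between fetal and adult liver, by the interaction term of the edgeR fit over 48 livers, for Ppp1r9a (1.76), Meg3 (-0.91), Rian (-0.97), Peg3 (-0.85), Mest (-0.62), Cdkn1c (-0.94) and Kcnq1ot1 (-0.73). All 7 were also called without male fetal liver 11.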

How the results depend on the processing

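The count of members that fell in adult liver was 23 and ranged over the alternatives from 21 to 26. With no fold threshold 8 members rose in place of 4. Scaling by library totals shifted the median of all genes from -0.05 to -0.61 and turned the log2 change of Ube3a (-0.52), Gnas (-0.41), Zrsr1 (-0.27), Commd1 (-0.33) and Inpp5f (-0.22), none of which was called in the fit above. Ube3a also turned with DESeq2 size factors (-0.052), DESeq2 (-0.055), no filter on low values (-0.0029) and thinned libraries (-0.0056).

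The numbers shared by fetal and adult livers did not pair them (0 of 24 pairs correlated above 0.1), nor did those of ES lines and fetal livers. With the replicate block the liver fit called 4 members higher and 23 lower, and the ES to fetal liver fit, which with the block kept only fetal livers 1 to 4 (all male), 26 and 5, where Mirg turned to -0.060. In that comparison Zrsr1 was at 0.07 and turned to -0.12 with library totals, and ranged from -0.034 to 0.18 when an ES line was left out. Commd1 was at -0.02 and ranged from -0.13 to 0.12.

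Leaving out 1 ES line moved the members called by gender in the lines from 0 to 15, with the lone line assumed to vary like the others, and the members past 2-fold between lines from 8 to 17, 8 without male line 1. At a mean of at least 10 CPM 11 were past 2-fold. In fetal liver the members called by gender were 19 with no fold threshold and 0 with the share of reads outside genes as covariate, chosen after seeing the data, where Plagl1 was at -0.17, Peg10 at -0.25 and Airn at -0.17. Leaving out male fetal liver 11, also chosen after seeing the data, gave 3. In adult liver they were 1 in the deeper livers, 8 with no filter (adding H19, Meg3, Rian, Cdkn1c and Peg10) and 7 with no fold threshold. No share of all genes stands beside these counts, so they cannot be read as a result about the members. No paired analysis was possible for the gender comparisons because the genders carry different numbers. The causes were not tested.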
